A study of Mus musculus with 16 samples.

Results

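The genes described here copy DNA in S phase. They encode the proteins of the replication fork, the enzymes that supply its nucleotides, the factors that license and fire origins, the proteins that rebuild chromatin behind the fork, and E2F transcription factors. The list holds 41 genes, chosen by symbol, and 39 of them had a probe among the 25697 on the array. No probe was named Rfc3 or E2f8, so these genes were not analysed here. Where a gene had several probes, the brightest by its mean over 16 arrays stood for it, and the 39 genes had 60 probes in all.

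RNA came from cultured fibro/adipogenic progenitors (FAPs), the mesenchymal progenitors of skeletal muscle that can become fibroblasts or adipocytes. All cells were from mice of the Balb/cJ background, of unstated age and sex. The 4 groups of 4 arrays each were wild-type (WT) cells with vehicle, WT cells with recombinant IL-4, Il4ra knockout (IL4RA -/-, KO) cells with vehicle, and KO cells with recombinant IL-4. IL-4 is a type 2 cytokine that signals through the receptor alpha chain missing in the knockout. IL-4 dose, exposure time, culture passage and the way the knockout was made are not given in the sources used here. The series names the arrays biological replicates without saying which animals they came from, so p-values measure the spread between these arrays.

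At the fork a helicase opens the duplex, replication protein A (RPA) coats the single strands, DNA polymerase alpha with primase lays down primers, and polymerases delta and epsilon extend them. The sliding clamp PCNA, loaded by replication factor C (RFC), holds the polymerases on DNA. Many of these genes are targets of E2F factors, which are released from pocket proteins when a quiescent cell re-enters the cycle, and their transcripts are commonly used to follow proliferation in cultured fibroblast-like cells.

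Values are the authors' normalized signals, read as log2, so a difference of 1 is a doubling under that reading. Every array ran from 7.72 to 14.77 with a median of 7.85. Of all probes, 57.0% had a mean no more than 0.15 over the array minimum, a range that leaves little room for a fall. Of 9 FAP and mesenchymal markers 8 were measured and 0 lay in that band, Pdgfra and Thy1 among those above it. With IL-4 in wild type Cd34, Vim and Thy1 rose and Dcn fell. In the band lay 5 of 7 measured myogenic markers, Pax7 and Myod1 among them, with Myog and Des above it. It held 5 of 8 leukocyte markers, Ptprc and Adgre1 among them, with Cd14, Cd74 and Lyz2 above it. It held 5 of 8 endothelial markers, Pecam1 and Cdh5 among them, with Kdr, Tek and Flt1 above it. Flt1 was above it only through the WT IL-4 arrays, with a mean of 9.07 there. Its means were 7.84 with WT vehicle, 7.83 with KO vehicle and 7.82 with KO IL-4. Of 6 pericyte and smooth muscle markers 3 lay in it, Rgs5 among them, with Cspg4, Abcc9 and Des above it. The log2 signals of 8 measured endothelial markers summed to 62.9 to 63.1 on WT vehicle arrays and 63.9 to 64.4 on WT IL-4 arrays. Flt1 was higher and Tek lower with IL-4. A sum of log2 signals is mostly array minimum and does not measure an amount of RNA. For 8 measured leukocyte markers the sum was 64.5 to 64.7 on WT vehicle and 63.4 to 63.6 on WT IL-4 arrays, with Lyz2 lower. The part of these cells in the results was not tested. Myogenic and pericyte markers gave 0 calls with IL-4 in wild type. Arrays 2 and 3 of the KO vehicle group stood apart on the third principal component, at -6.95 and -7.52 against -3.14 to 4.77 on the other 14 arrays. No probe was named Il4ra, so the targeted gene did not check the genotype labels.

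The first question was what IL-4 does to these genes in wild-type FAPs. Of 39 measured genes 24 rose, 2 fell and 13 did not pass an adjusted p of 0.05 (limma, Benjamini-Hochberg over all probes). Over all 25697 probes 6.34% rose and 7.32% fell. The median log2 change was 0.21 over the 39 genes and -0.000766 over all probes. All 4 WT IL-4 arrays lay above all 12 other arrays for 23 of the 39 genes, against 4.34% of all probes. Since RNA was taken from whole cultures, more cells in S phase and more transcript per cell cannot be told apart. The same genes were already known to rise when they were listed, so these counts describe the set and do not test it.

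**Figure D1:**
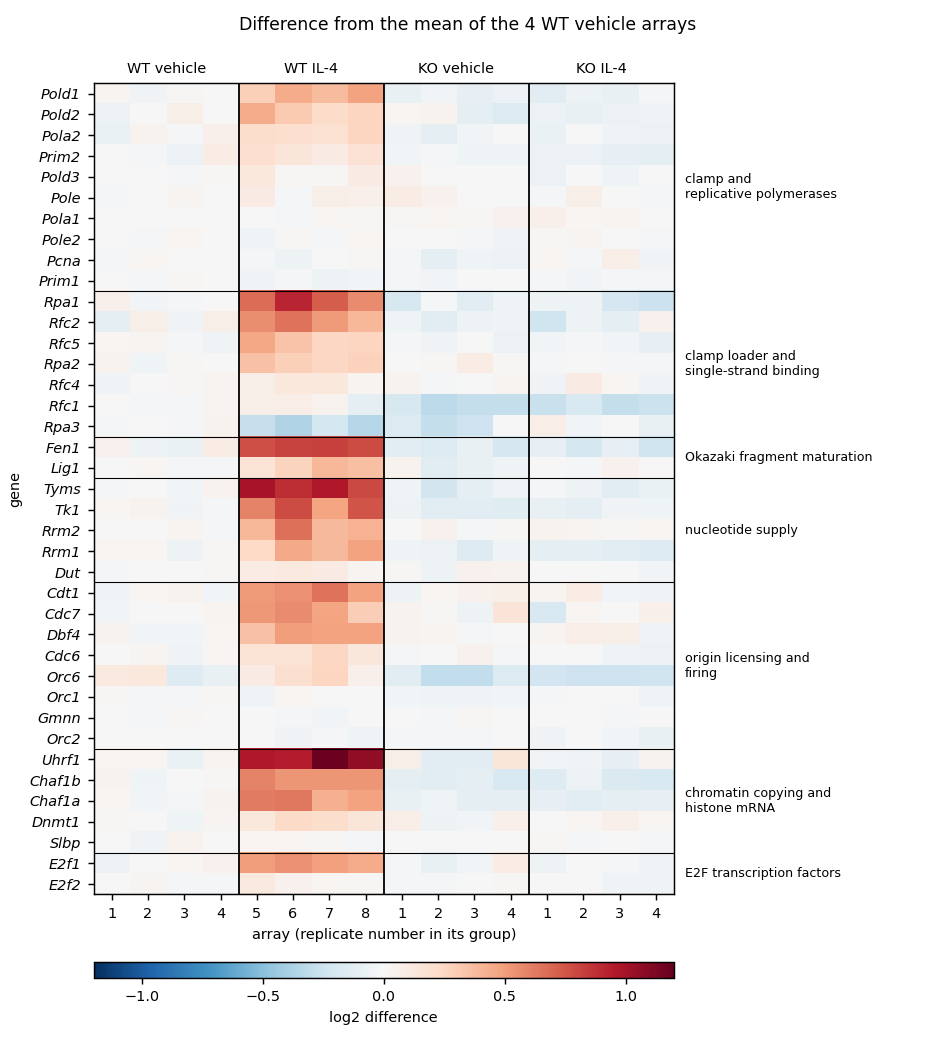
Log2 difference of each of the 39 measured genes (rows, by role) from the mean of the 4 WT vehicle arrays, on each of 16 arrays (columns, by group). Red is higher and blue lower; the colour fills the 4 WT IL-4 columns for most genes above the array minimum, while Rpa3 is blue there and Rfc1 and Orc6 are blue in both KO groups.

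Averaged over the 39 genes, the 4 WT IL-4 arrays stood 0.28, 0.31, 0.28 and 0.26 above the WT vehicle mean on the log2 scale. The KO arrays stood between -0.06 and -0.03, with vehicle or with IL-4. On each WT IL-4 array 32 or 33 of the 39 genes exceeded their WT vehicle mean, so the shift was not carried by 1 array.

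Of the 10 genes of the polymerases and the clamp 4 rose and 1 fell. Pold1 encodes the catalytic subunit of polymerase delta. Its signal was 8.32, 8.25, 8.30 and 8.28 on WT vehicle arrays and 8.57, 8.73, 8.66 and 8.77 on WT IL-4 arrays. It read 8.20, 8.25, 8.19 and 8.22 with vehicle and 8.15, 8.22, 8.19 and 8.27 with IL-4 in the knockout. The WT IL-4 arrays were high and overlapped no other group, a log2 change of 0.40 ± 0.04 (SE) or 1.32-fold (limma adjusted p = 1.76e-06). Pold2, the second subunit of polymerase delta, went from 8.87, 8.94, 9.00 and 8.93 to 9.38, 9.25, 9.15 and 9.19 in wild type. In the knockout Pold2 lay between 8.77 and 8.98 in both groups, below every WT IL-4 array. Its change was 0.31 ± 0.05 (adjusted p = 0.000465). The accessory subunit Pold3 changed by 0.06 and did not pass (adjusted p = 0.125).

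Polymerase alpha and primase form a complex of 4 subunits. The accessory subunit Pola2 rose by 0.21 ± 0.03 (SE) and the large primase subunit Prim2 by 0.15 ± 0.03 (limma adjusted p = 0.000181 and 0.00128). The catalytic subunits had probes near the array minimum. Pola1 changed by 0.01, and Prim1, the small primase subunit, fell by 0.04 ± 0.01 (adjusted p = 0.0219). Prim1 read 7.83, 7.81, 7.83 and 7.81 with vehicle and 7.78, 7.80, 7.76 and 7.79 with IL-4 in wild type. It read 7.79 to 7.81 on all 8 KO arrays, so its WT groups did not overlap but stood a few hundredths apart, only 0.08 above the array minimum on average. The call was lost without WT vehicle array 1 or 3 or WT IL-4 array 7, where the adjusted p was 0.0611, 0.0683 and 0.0749. It was also lost with the trended, robust variance model (0.0516) and with only the groups compared (0.0922). Polymerase epsilon gave no call: Pole changed by 0.06 (adjusted p = 0.261) and Pole2 by -0.01 (0.876), both in the band next to the minimum. Pcna itself, the clamp, was read by 1 probe at 7.86, 7.89, 7.87 and 7.87 with vehicle and 7.85, 7.81, 7.87 and 7.88 with IL-4 in wild type (adjusted p = 0.792). That probe sat 0.13 above the array minimum and so has little room to show a fall. Whether it would register a small rise was not tested.

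Of 7 measured genes for RFC and RPA 4 rose, 1 fell and 2 did not pass. Rpa1, the large DNA-binding subunit of RPA, read 10.66, 10.57, 10.58 and 10.61 on WT vehicle arrays and 11.27, 11.52, 11.33 and 11.17 on WT IL-4 arrays. All 8 KO arrays lay between 10.35 and 10.59, below every WT IL-4 array. The WT change was 0.72 ± 0.07 (SE), or 1.65-fold (limma adjusted p = 1.71e-06). Rpa2, the middle subunit, went from 8.01, 7.92, 7.99 and 7.98 to 8.32, 8.26, 8.23 and 8.25 in wild type, a rise of 0.29 ± 0.02 (adjusted p = 7.66e-07). On the KO arrays Rpa2 read 7.95 to 8.07, again below the WT IL-4 arrays. Of the 2 Rpa2 probes, the dimmer lay in the band next to the minimum and did not pass.

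Rpa3, the small subunit of the same trimer, went the other way. Its signal was 9.99, 10.02, 10.01 and 10.07 on WT vehicle arrays and 9.75, 9.66, 9.82 and 9.68 on WT IL-4 arrays. The groups did not overlap, and Rpa3 fell by 0.30 ± 0.05 (SE), to 0.815 of the vehicle level (limma adjusted p = 0.00112). In the knockout it read 9.86, 9.74, 9.77 and 10.02 with vehicle and 10.10, 9.99, 10.03 and 9.93 with IL-4, a change of 0.16 in the opposite direction (95% interval 0.05 to 0.28, adjusted p = 0.863). The difference of the Rpa3 responses, wild type minus knockout, was -0.46 ± 0.08 (adjusted p = 0.000994). The KO vehicle arrays spread widely for this gene, with arrays 2 and 3 as low as the WT IL-4 arrays. Rpa3 has 1 probe, so no second probe bears on its direction.

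**Figure D2:**
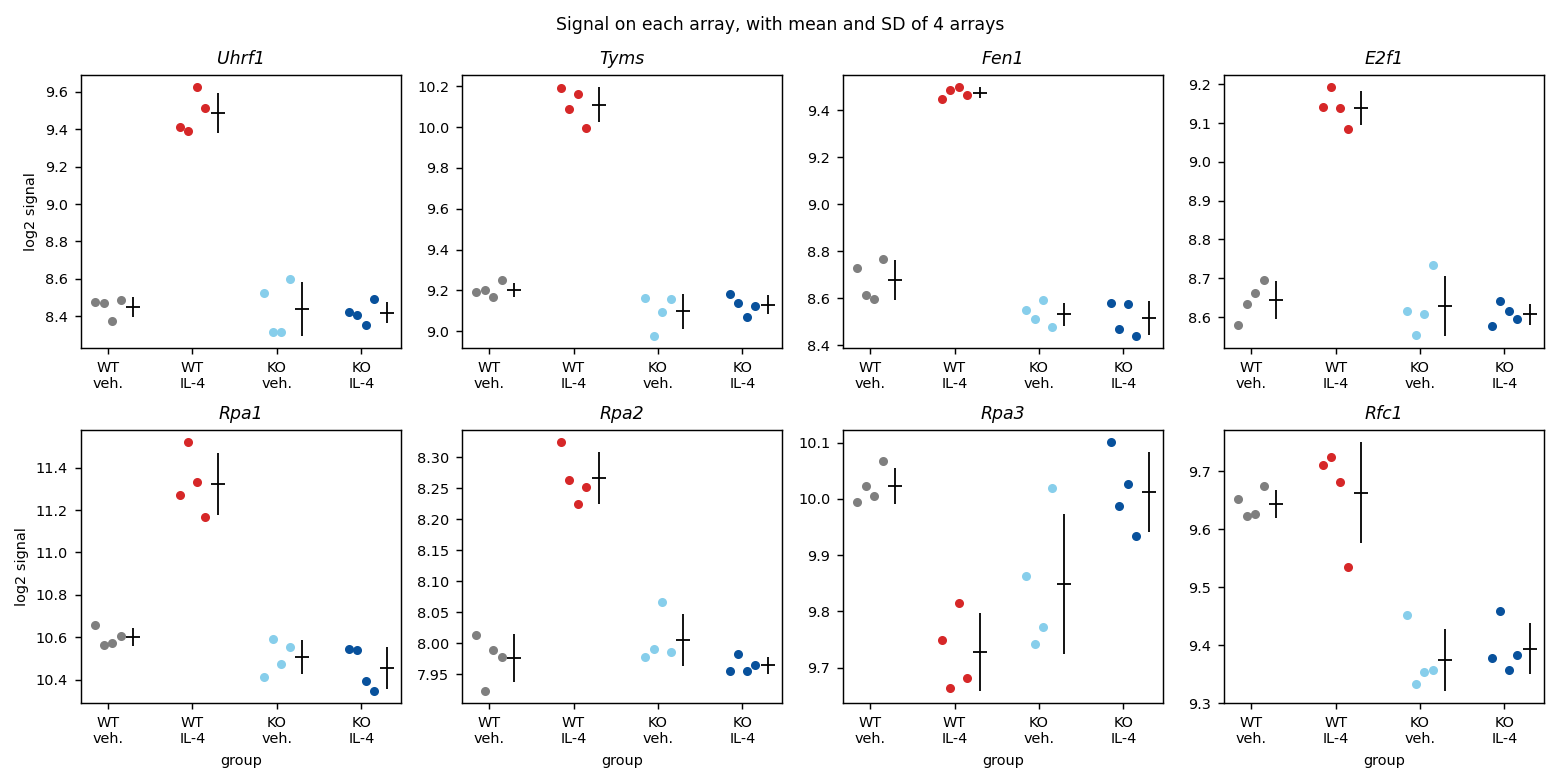
Log2 signal of 8 genes on each of 16 arrays (points, by group; veh. is vehicle), with the mean and SD of the 4 arrays beside them; the vertical scales differ and do not start at 0. Rpa1 and Rpa2 rise in WT IL-4 arrays and Rpa3 falls there, while Rfc1 is lower in both KO groups.

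The promoters of the 3 RPA genes are printed because the transcripts of 1 complex moved apart. The windows are from the RefSeq table for GRCm38.p6, run 5′ to 3′ on the gene's strand from 250 bases before the annotated start to 50 after it, and carry in capitals each CCAAT box, searched as CCAAT on both strands (so ATTGG marks the reverse strand).
Rpa1 (chr11:75348334-75348633, minus strand): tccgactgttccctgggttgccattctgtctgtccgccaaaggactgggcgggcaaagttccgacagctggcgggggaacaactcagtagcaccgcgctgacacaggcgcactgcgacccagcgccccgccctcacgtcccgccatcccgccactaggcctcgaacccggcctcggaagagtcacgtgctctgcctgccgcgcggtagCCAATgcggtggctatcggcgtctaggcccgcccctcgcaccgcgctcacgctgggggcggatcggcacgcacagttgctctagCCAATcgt
Rpa2 (chr4:132768110-132768409, plus strand): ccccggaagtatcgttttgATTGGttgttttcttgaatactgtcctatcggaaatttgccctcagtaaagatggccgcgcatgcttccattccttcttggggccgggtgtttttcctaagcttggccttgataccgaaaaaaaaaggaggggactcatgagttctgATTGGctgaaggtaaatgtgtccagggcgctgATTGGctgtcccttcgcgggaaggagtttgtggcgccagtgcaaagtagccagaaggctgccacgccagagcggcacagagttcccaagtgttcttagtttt
Rpa3 (chr6:8259092-8259391, minus strand): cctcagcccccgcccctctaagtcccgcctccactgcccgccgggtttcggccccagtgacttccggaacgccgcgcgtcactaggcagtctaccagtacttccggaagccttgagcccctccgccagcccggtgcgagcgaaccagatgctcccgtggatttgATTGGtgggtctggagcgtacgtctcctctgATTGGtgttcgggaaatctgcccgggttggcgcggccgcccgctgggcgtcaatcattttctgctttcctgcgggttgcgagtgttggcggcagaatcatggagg
The window of Rpa1 holds 2 CCAAT boxes, that of Rpa2 holds 3 and that of Rpa3 holds 2. Of all 32851 RefSeq windows, 37.4% hold at least 1, so the box is common and does not set the 3 genes apart.

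In the clamp loader, Rfc2 read 9.16, 9.34, 9.23 and 9.34 with vehicle and 9.82, 9.92, 9.77 and 9.66 with IL-4 in wild type, a rise of 0.53 ± 0.06 (SE; limma adjusted p = 2.14e-05). Its KO arrays lay between 9.02 and 9.32, below every WT IL-4 array. Rfc5 rose by 0.33 ± 0.04 (adjusted p = 2.4e-05). Rfc4 changed by 0.09 (adjusted p = 0.0691), and passed with the trended, robust variance model (0.0118), with only probes above the band (0.048), and without KO IL-4 array 2 (0.0263) or WT IL-4 array 8 (0.0382). Rfc1, the large subunit, did not respond detectably: its change was 0.02 with a 95% interval of -0.06 to 0.10.

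Both genes of Okazaki fragment maturation rose. Fen1, the flap endonuclease that trims the RNA primer, read 8.73, 8.61, 8.60 and 8.77 on WT vehicle arrays and 9.45, 9.49, 9.50 and 9.46 on WT IL-4 arrays. The KO arrays lay between 8.44 and 8.59, so the WT IL-4 arrays stood alone and were close together. The change was 0.80 ± 0.04 (SE), or 1.74-fold (limma adjusted p = 3.85e-09). Lig1, the ligase that seals the nick, rose by 0.30 ± 0.04, from 8.08, 8.10, 8.06 and 8.06 to 8.24, 8.34, 8.47 and 8.44 (adjusted p = 0.000169). Its KO arrays lay at 7.94 to 8.12, below the lowest WT IL-4 array, and of its 4 probes 2 rose.

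All 5 genes of nucleotide supply rose, with a median log2 change of 0.47. Tyms, the thymidylate synthase that makes dTMP, had the largest change of the 5. It read 9.19, 9.20, 9.17 and 9.25 on WT vehicle arrays and 10.19, 10.09, 10.16 and 10.00 on WT IL-4 arrays, a rise of 0.91 ± 0.04 (SE) or 1.88-fold (limma adjusted p = 2.09e-09). On KO arrays Tyms stayed between 8.98 and 9.18, just under the WT vehicle arrays or level with them. Of its 5 probes 2 rose, and the 3 others lay in the band next to the minimum. Tk1, the thymidine kinase of the salvage pathway, went from 8.47, 8.49, 8.40 and 8.42 to 9.04, 9.23, 8.92 and 9.20, a rise of 0.66 ± 0.05 (adjusted p = 3.46e-07; 1 of 3 probes). Its KO arrays lay at 8.30 to 8.40, below every WT IL-4 array.

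The subunits of ribonucleotide reductase, which makes deoxyribonucleotides, rose alike. Rrm1, the large catalytic subunit, gained 0.39 ± 0.04 (SE) and Rrm2, the small subunit that is limiting in the cycle, 0.47 ± 0.04 (limma adjusted p = 9.1e-06 and 2.8e-06). Both Rrm2 probes rose, the only gene of the 12 with several probes for which every probe did. Dut, the dUTPase that keeps uracil out of DNA, rose by 0.08 ± 0.02 (adjusted p = 0.0163), a call lost without WT IL-4 array 6 (0.058).

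Of 8 genes of origin licensing and firing 4 rose, 0 fell and 4 did not pass. Cdt1 brings the helicase to origins. It read 8.39, 8.45, 8.47 and 8.40 with vehicle and 8.94, 8.98, 9.08 and 8.91 with IL-4 in wild type, and 8.36 to 8.52 on the KO arrays. The WT IL-4 arrays lay above all others, a rise of 0.55 ± 0.04 (SE; limma adjusted p = 1.69e-07). Cdc7 and Dbf4 encode the kinase that fires licensed origins and its activating subunit, and both rose. Cdc7 went from 8.38, 8.40, 8.41 and 8.44 to 8.93, 8.98, 8.88 and 8.70, with KO arrays at 8.23 to 8.56, a change of 0.46 ± 0.06 (adjusted p = 6.49e-05; 1 of 2 probes). Dbf4 rose by 0.46 ± 0.03 (adjusted p = 2.35e-07). Cdc6, the ATPase that loads the helicase with Cdt1, rose by 0.18 ± 0.03 (adjusted p = 0.000231; 1 of 4 probes, the other 3 being in the band next to the minimum).

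None of the 3 measured subunits of the origin recognition complex passed. Orc1 changed by -0.0040 (limma adjusted p = 0.939), Orc2 by -0.03 (0.386) and Orc6 by 0.15 (0.157). Orc1 and Orc2 lay in the band next to the minimum, but Orc6 was well above it, at 9.81, 9.81, 9.53 and 9.59 with vehicle and 9.79, 9.88, 9.94 and 9.75 with IL-4. Its WT groups overlapped, with vehicle arrays 1 and 2 as high as the IL-4 arrays. Gmnn, the geminin that blocks Cdt1, changed by -0.02 near the minimum (adjusted p = 0.501).

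Among 5 genes of chromatin copying 4 rose. Uhrf1, which reads hemimethylated DNA and recruits the maintenance methyltransferase, had the largest rise of the 39 genes and ranked 57 of 25697 probes. Its signal was 8.47, 8.47, 8.37 and 8.49 on WT vehicle arrays and 9.41, 9.39, 9.63 and 9.51 on WT IL-4 arrays. On the KO arrays it read 8.52, 8.32, 8.32 and 8.60 with vehicle and 8.42, 8.40, 8.35 and 8.49 with IL-4, in the range of the WT vehicle arrays or around it. The WT change was 1.04 ± 0.06 (SE), or 2.05-fold (limma adjusted p = 2.83e-08). It rests on 1 of 2 probes, the other lying in the band next to the minimum. Dnmt1, the maintenance methyltransferase itself, rose by 0.18 ± 0.03 (adjusted p = 0.00126).

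Chaf1a and Chaf1b, subunits of the chromatin assembly factor that deposits histones behind the fork, rose by 0.54 ± 0.04 and 0.55 ± 0.03 (SE; limma adjusted p = 9.46e-08 and 2.91e-09). Chaf1b read 8.27, 8.19, 8.23 and 8.25 with vehicle and 8.83, 8.76, 8.76 and 8.76 with IL-4 in wild type. All 8 KO arrays lay between 8.05 and 8.17, below both WT groups. Slbp, which binds the stem-loop of histone mRNAs, had a probe near the minimum and changed by 0.01 (adjusted p = 0.803).

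E2f1, an activator of S-phase genes, read 8.58, 8.63, 8.66 and 8.70 on WT vehicle arrays and 9.14, 9.19, 9.14 and 9.08 on WT IL-4 arrays. The KO arrays lay at 8.55 to 8.74, overlapping WT vehicle and well below WT IL-4. The change was 0.50 ± 0.03 (SE), or 1.41-fold (limma adjusted p = 1.01e-07). E2f2 changed by 0.05 near the minimum and did not pass (adjusted p = 0.125), and each of its 3 probes lay in that band.

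E2F sites in the promoters, chosen for print after the values were seen, are shown because many genes of the list are known targets of E2F factors. The letters searched on both strands were TTTCCCGC, TTTGGCGC, TTTCGCGC and TTTGCCGC, and these letters contain none of the other motifs searched. RefSeq windows matched 37 of the 41 genes, and 12 of the 37 (32.4%) hold at least 1 site in at least 1 window. Of all 27025 genes with a window, 2.6% do. Many of the listed genes are known E2F targets, so this share describes the list and not the response to IL-4. Whether E2F factors had a part in the rises was not tested. Sites of 6 genes that rose and of 2 that did not pass follow, with 20 bases on either side where the window allows, on the gene's strand, with the site in capitals.
Uhrf1 (chr17:56304108-56304155, plus strand): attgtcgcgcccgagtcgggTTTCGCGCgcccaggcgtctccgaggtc
Cdt1 (chr8:122568027-122568064, plus strand): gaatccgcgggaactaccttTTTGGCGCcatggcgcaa
Cdc6 (chr11:98907993-98908040, plus strand): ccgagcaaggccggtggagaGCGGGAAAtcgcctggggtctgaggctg
Pold1 (chr7:44548766-44548796, minus strand): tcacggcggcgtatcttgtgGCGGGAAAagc
Lig1 (chr7:13278832-13278875, plus strand): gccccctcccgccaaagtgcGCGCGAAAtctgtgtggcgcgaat
Dnmt1, upstream site (chr9:20952815-20952862, minus strand): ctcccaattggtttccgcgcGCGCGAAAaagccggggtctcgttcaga
Dnmt1, downstream site (chr9:20952574-20952610, minus strand): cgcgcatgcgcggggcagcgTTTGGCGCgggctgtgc
Orc1 (chr4:108579407-108579454, plus strand): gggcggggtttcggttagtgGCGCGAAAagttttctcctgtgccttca
Pola1 (chrX:93632266-93632313, minus strand): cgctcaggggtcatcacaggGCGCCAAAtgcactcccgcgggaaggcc
The site of Uhrf1 begins 185 bases before the annotated start, that of Cdc6 138 before it and that of Cdt1 32 after it. A site was held by 6 of the 22 rising genes with a window, by 5 of the 11 that did not pass and by 0 of the 2 that fell. Of the 11 that did not pass 7 lay in the band next to the array minimum, as did 4 of their 5 with a site, so these counts do not compare responding with unresponsive genes. The gene with a site above the band was Pold3. Its site is not printed, nor are those of E2f2, Pole2 and the unmeasured Rfc3. A match is a description of letters, not a bound site. The STAT6-type spacing was held by 10.8% of the 37 genes and 8.0% of all genes. The cell-cycle homology region TTTGAA was held by 18.9% and 20.2%, and the CCAAT box by 54.1% and 41.1%.

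Signal height and call went together across the 39 genes. In the band within 0.15 of the array minimum lay 10 genes, of which 0 rose and 1 (Prim1) fell. Above the band lay 29 genes, of which 24 rose and 1 (Rpa3) fell. Over all probes 0.621% rose in the band and 13.9% above it. The mean that sets the band includes the WT IL-4 arrays, so a large rise lifts a gene out of it. The split of rises by band is therefore partly fixed by its definition. Of the 29 brighter genes, Pold3, Rfc1, Rfc4 and Orc6 were the 4 that did not pass. Missing calls for dim genes such as Pcna, Pola1, Gmnn or Slbp are not evidence of unchanged transcripts.

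**Figure D3:**
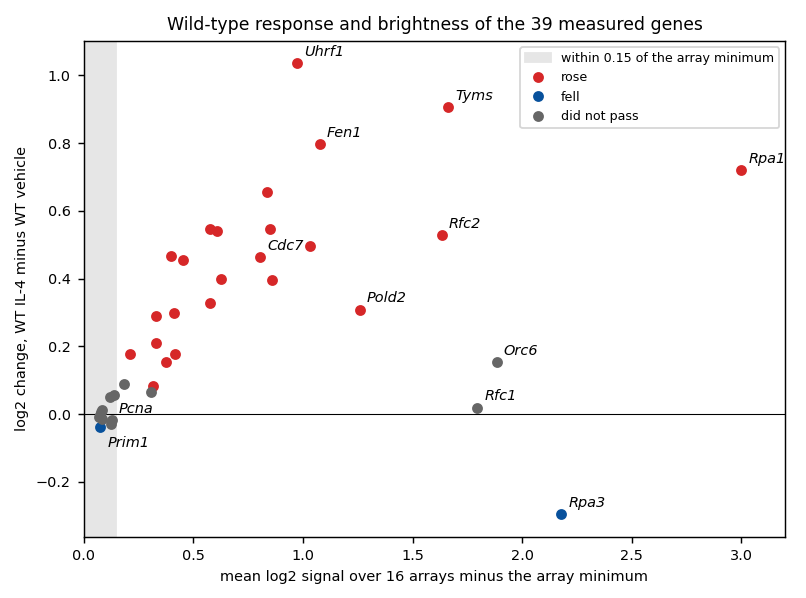
Log2 change with IL-4 in wild type (vertical) against the mean log2 signal over 16 arrays above the array minimum (horizontal) for 39 genes; colours give the limma call. Genes in the grey band of 0.15 stay near 0, and among the bright genes Rfc1 lies at 0.02, Orc6 at 0.15 (neither passed) and Rpa3 at -0.30.

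Other genes of S phase moved the same way in part. From further lists, 75 of 86 genes were measured, of which 36 rose and 2 fell, with a median of 0.09. Of 10 genes of the replicative helicase 8 rose, led by Mcm5 (1.07 ± 0.03, SE) and Mcm4 (0.94 ± 0.06). Other fork, origin and checkpoint genes gave 8 rises and 2 falls among 20, with Clspn, the claspin that carries the checkpoint signal, up by 0.61 ± 0.04 and Tipin, of the fork protection complex, by 0.45 ± 0.06. The falls were Pold4, a small subunit of polymerase delta (-0.19), and Orc5 (-0.24). Other nucleotide enzymes gave 9 rises among 17, with Nme1, a nucleoside diphosphate kinase (0.48 ± 0.04), and Ctps, the CTP synthase (0.34 ± 0.09). Other chromatin copying genes gave 5 rises among 9, with the histone acetyltransferase Hat1 (0.48 ± 0.05) and Cdca7 (0.35 ± 0.04). In the E2F and pocket protein network 6 of 19 rose, with Mybl2, itself a known E2F target (0.48 ± 0.04), and the kinase Cdk2 (0.46 ± 0.04). The limma adjusted p-values of these 10 rises lay between 5.97e-12 for Mcm5 and 0.013 for Ctps.

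The second question was whether the genes respond to IL-4 without the receptor chain. In the knockout 0 of 39 genes passed in limma (smallest adjusted p = 0.863), as did 0 of 25697 probes, so 0% were called over all probes. At an unadjusted p under 0.05 there were 2 of the 39 genes, Pcna (0.07) and Rpa3 (0.16), and 5.6% of all probes. The KO changes ran from -0.06 for Cdc7 to 0.16 for Rpa3, with a median of -0.01. For all 24 genes that rose in wild type the 95% interval of the KO change included 0. The interval ran from -0.16 to 0.12 for Uhrf1, from -0.06 to 0.13 for Tyms, from -0.11 to 0.07 for Fen1 and from -0.10 to 0.05 for E2f1. Changes as large as in wild type lie outside these intervals, while smaller ones within them were not detectable with 4 arrays.

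**Figure D4:**
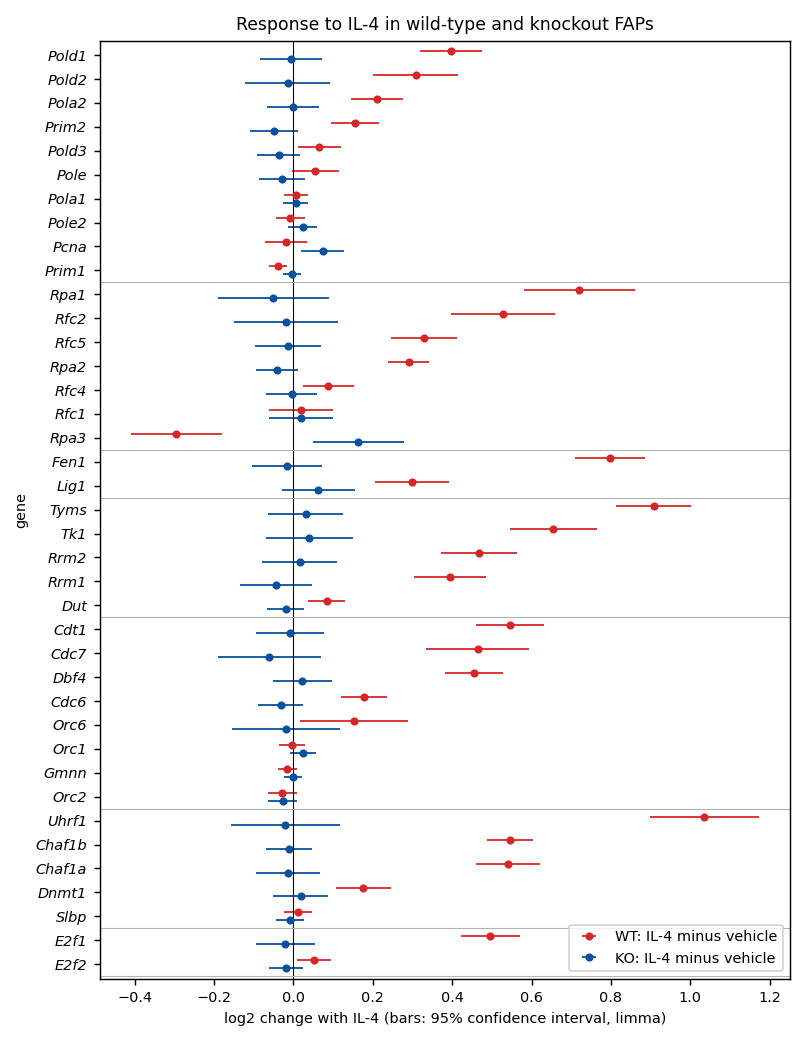
Log2 change with IL-4 (horizontal, points) and its 95% confidence interval from limma (bars) in wild-type (red) and knockout (blue) cells for 39 genes, grouped by role. The red points of 24 genes lie right of 0 past the test, and the blue points lie between -0.06 and 0.16.

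An interaction term asked whether the responses differ. In limma 24 of the 39 genes passed, 23 with a higher and 1 (Rpa3) with a lower change in wild type, against 4.04% and 4.35% of all probes. Among the 24 genes that rose in wild type 23 passed. The exception was Dut, with a difference of 0.10 (adjusted p = 0.0523), which passed without KO vehicle array 2 (0.00426), KO vehicle arrays 2 and 3 (0.0145) or WT IL-4 array 8 (0.0177), with array weights (0.0451) and with the probe-averaged table (0.0425). Uhrf1 differed by 1.06 ± 0.09 (SE), Tyms by 0.88 ± 0.06, Fen1 by 0.81 ± 0.06 and Rpa1 by 0.77 ± 0.09 (adjusted p = 2.21e-06, 3.26e-07, 3.01e-07 and 6.06e-05). The smallest passing difference was that of Dnmt1 (0.16, adjusted p = 0.0454). Of the fits that left out 1 array, its call held without KO vehicle array 2 or 3, WT vehicle array 4 or WT IL-4 array 5 or 8, and ended in all others (adjusted p 0.0501 to 0.0976). The call for Lig1 (0.24, adjusted p = 0.0258) ended without KO IL-4 array 2, WT vehicle array 3 or WT IL-4 array 8 (0.0542, 0.0503 and 0.0566).

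The third question was whether the genotypes differ before IL-4. Under vehicle 2 of 39 genes were lower in the knockout and 0 were higher, against 1.5% and 1.18% of all probes, or 2.69% in either direction (limma). The median difference over the 39 genes was -0.02, and -0.000338 over all probes. Rfc1, the large subunit of the clamp loader, read 9.65, 9.62, 9.63 and 9.67 in wild type and 9.45, 9.33, 9.35 and 9.36 in the knockout. The groups did not overlap, with a difference of -0.27 ± 0.04 (SE), or 0.83 of the WT level (adjusted p = 0.00137). Chaf1b was lower as well, with a difference of -0.13 ± 0.03 (adjusted p = 0.017). The Chaf1b call was lost without WT vehicle array 1 (0.0604) or 4 (0.0551), without KO vehicle arrays 2 and 3 (0.0559) and with the replicate number as a block (0.0895). Fen1 (-0.14, adjusted p = 0.0896) and Orc6 (-0.22, 0.0915) did not pass. With only probes above the band both did (0.0491 and 0.042), which made 4 lower genes. Orc6 also passed without WT vehicle array 3 (0.0317), and Rpa3 (-0.17, adjusted p = 0.118) passed without KO vehicle array 4 (0.0126). Among the markers, Cd14 (0.24, adjusted p = 0.0147), Cd74 (0.08, 0.0346) and the mesenchymal Dcn (0.52, 0.00267) were higher in the knockout under vehicle. The summed log2 signals of the leukocyte markers ran from 64.5 to 64.7 on WT vehicle arrays and from 64.8 to 65.2 on KO vehicle arrays. The part of such cells in the lower values was not tested. Orc6 was lowest on KO vehicle arrays 2 and 3, at 9.39 and 9.38 against 9.56 and 9.52 on the other 2, and those are the arrays that stood apart on the third component.

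Under IL-4 the knockout was lower for 28 of 39 genes and higher for 1, against 7.2% and 7.7% of all probes, or 14.9% in either direction (limma). This contrast shares the WT IL-4 arrays with the wild-type response, so it is not separate evidence. The 28 comprised the 24 genes that rose in wild type, together with Rfc1, Orc6, Pold3 and E2f2, and the gene that was higher was Rpa3 (0.28 ± 0.05, SE; adjusted p = 0.00148). Uhrf1 stood at 0.477, Tyms at 0.507 and Fen1 at 0.515 of the WT IL-4 level. Rfc1 differed by -0.27 ± 0.04 (adjusted p = 0.000121), the size it had under vehicle, and its responses to IL-4 differed by -0.00097 with a 95% interval of -0.12 to 0.11. Orc6 read 9.46, 9.44, 9.44 and 9.45 on KO IL-4 arrays and lay 0.39 below wild type (-0.39 ± 0.06, adjusted p = 0.000438). The calls for Pold3 (-0.10) and E2f2 (-0.08) ended with only the groups compared (both adjusted p = 0.0797), and that for Pold3 also without KO IL-4 array 1 or 3 or WT IL-4 array 5 or 8 (0.0615, 0.0528, 0.0572 and 0.0594). That for E2f2 also ended without KO IL-4 array 3 or 4 (0.0546 and 0.0526).

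Among the 12 genes with several probes, 9 had at least 1 probe that rose in wild type and 0 had a probe that fell. The probes that did not rise were mostly dim. For Tk1, the second probe (0.08, limma adjusted p = 0.0579) lay above the band and did not pass, and for Lig1 the second rose by 0.10 (adjusted p = 0.000119). Sizes of change for a gene therefore depend on the probe read, and the brightest probe gave the largest rise in each of the 9. That probe was picked by a mean that includes the WT IL-4 arrays, a choice that favours probes that rise. Averaged over all probes of a gene, the rise was 0.52 for Uhrf1, 0.24 for Tk1, 0.23 for Cdc7, 0.21 for Tyms, 0.15 for Rpa2, 0.10 for Lig1, 0.09 for Prim2 and 0.05 for Cdc6, and all 8 still passed.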

How the data were processed

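RNA from 16 FAP samples was measured on Illumina MouseRef-8 v2.0 arrays, with RNeasy extraction and Cy3 label per the labels' protocols. The deposited values were used as log2 signals; the log base, software, background correction and detection calls are not given in the sources used here. The sorted values of the 16 arrays differed by at most 0.00059, so the authors' table was quantile normalized, and no further normalization was done. Genes were named through GEO's platform annotation, which gave 23978 of 25697 probes 1 symbol. Groups were taken from sample titles. A linear model with a mean for each of the 4 groups was fitted to all probes over 16 arrays with limma 3.58.1 in R 4.3.3 (12 residual degrees of freedom). P-values were moderated with eBayes and adjusted by Benjamini-Hochberg over 25697 probes per contrast, with a threshold of 0.05. Intervals are 95%. The script was tested on simulated data. The number of arrays limits the precision. A band of 0.15 above the array minimum marked dim probes.

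The members, the other pathway lists, the markers and the tests were chosen with earlier results of these data known. Values per array were printed for the 2 genes of each role with the largest change past the threshold and for genes that fell. Those of Pcna, Rpa2, Rfc1 and Orc6 were added after their values were seen. Of the other lists up to 2 genes each were named by the size of the change past the threshold, and Pold4 and Orc5 were added as the falls. Alternatives were another quantile normalization, median centring, a filter on dim probes, an offset of 50 on the linear scale, a trended robust variance, array weights, only the groups compared, a replicate block, the mean of a gene's probes and leaving out arrays. Promoter letters were searched with Python 3.11.15 in RefSeq windows of GRCm38.p6. Protein sequences were not used here.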

Additional observations from a re-analysis of the deposited data

Results flagged for a closer look

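An array stood apart from the other 3 of its group in 9 of 156 groups of 4 arrays, by Dixon's criterion, which chance meets in about 5% of groups. In the KO vehicle group these were Pold3 on array 1 (8.07, others 8.01 to 8.02) and Rpa2 on array 3 (8.07, others 7.98 to 7.99). In the KO IL-4 group they were Pole on array 2 (7.90, others 7.82 to 7.83) and Dut on array 4 (7.99, others 8.02). WT vehicle array 3 was low for Rrm1 (8.48, others 8.55 to 8.56) and for Uhrf1 (8.37, others 8.47 to 8.49). Among WT IL-4 arrays, Rrm2 was high on array 6 (8.66, others 8.39 to 8.41), Dbf4 low on array 5 (8.40, others 8.54 to 8.55) and Chaf1b high on array 5 (8.83, others 8.76).

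The response to IL-4 differed between wild type and knockout by the interaction test in limma for 24 genes. The log2 difference, wild type minus knockout, was 0.21 for Pola2, 0.20 for Prim2, 0.40 for Pold1 and 0.32 for Pold2 among the polymerases. It was 0.55 for Rfc2, 0.34 for Rfc5, 0.77 for Rpa1, 0.33 for Rpa2 and -0.46 for Rpa3, and 0.81 for Fen1 and 0.24 for Lig1. For nucleotide supply it was 0.44 for Rrm1, 0.45 for Rrm2, 0.88 for Tyms and 0.62 for Tk1. For licensing and firing it was 0.21 for Cdc6, 0.55 for Cdt1, 0.52 for Cdc7 and 0.43 for Dbf4. For chromatin copying it was 0.56 for Chaf1a, 0.56 for Chaf1b, 1.06 for Uhrf1 and 0.16 for Dnmt1, and for E2f1 it was 0.52.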

How the results depend on the processing

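Of the 26 wild-type calls among the 39 genes, 24 held in all 24 alternatives. The exceptions were Prim1 and Dut. Settings that left out only KO arrays could not alter a wild-type change, only its spread and p-value. The mean of all probes likewise left the change of a gene with 1 probe as it was. No result changed sign among the calls. With only probes above the band, the wild-type response had 1 lower gene and a median of 0.39, the difference of responses a median of 0.40, the genotype contrast under vehicle 4 lower genes, and that under IL-4 a median of -0.42; fewer probes were tested there. The trended robust variance gave 1 lower gene in the wild-type response, 2 lower genes in the difference of responses and 1 called probe in the knockout. The lower gene added to the difference of responses was Pcna (-0.09, limma adjusted p = 0.0432). Its probe lay in the band next to the minimum and did not pass in the main fit (0.156). Only the groups compared gave 1 lower gene in the wild-type response. The mean of all probes gave medians of 0.15 (wild-type response) and -0.22 (genotype under IL-4). Beyond the settings' own construction the cause was not tested.

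Same-numbered arrays were not treated as paired. For the KO groups the labels do not say whether such arrays share an animal or culture. WT and KO arrays cannot share an animal, and the labels name no batch, so a block for the vehicle groups rests on the number alone. Deviations of same-numbered arrays correlated between -0.22 and 0.14 for the KO groups and between -0.08 and 0.05 for the vehicle groups. No shared effect was seen in such low values, but they cannot exclude one or tell whether the arrays were paired. With the replicate block, genotype under vehicle gave 1 lower gene and 354 probes against 690, and the knockout response 0 calls. WT vehicle and WT IL-4 arrays share no numbers, nor do the IL-4 groups, so no block was possible there. Without KO vehicle arrays 2 and 3, an alternative chosen after seeing the data, genotype under vehicle gave 1 lower gene and 385 probes. The difference of responses needs all 4 groups, so it has no fit with fewer.

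Leaving out 1 array at a time gave 23 to 25 higher and 1 to 2 lower genes in the wild-type response, with 3002 to 3606 probes. The difference of responses gave 21 to 24 higher genes. Genotype under vehicle gave 1 to 3 lower genes and 426 to 823 probes, with 447, 426 and 456 probes without WT vehicle array 1, 2 or 4, and genotype under IL-4 gave 26 to 29 lower genes. Signals near the minimum limit what the 10 dim genes can show.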
